A study of Mus musculus with 35 samples.

Results

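Polycomb repressive complex 2 (PRC2) was followed through 10 mouse genes that encode its subunits. They are the catalytic paralogues Ezh1 and Ezh2, the core subunits Eed and Suz12, the histone-binding proteins Rbbp4 and Rbbp7, and the accessory subunits Jarid2, Aebp2, Mtf2 and Phf19. The genes were found by name in the authors' merged transcript assemblies of batch 1 and batch 3, where each has 1 locus that it shares with no other known gene. They are 10 of 22961 gene symbols present in both expression tables and 10 of the 13726 genes that passed the low-count filter over both batches.

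The cells were cultured neural progenitor cells (NPCs) from mouse embryos, in numbered culture lines that are homozygous knockout (KO), heterozygous (Het) or wild type (WT) for Mettl14. Mettl14 encodes the partner of Mettl3 in the enzyme that methylates messenger RNA at adenosine, giving N6-methyladenosine (m6A). The KO and Het genotypes carry a deletion of the stretch around exon 2 that was flanked by loxP sites. The protocols describe a germline deletion through EIIa-Cre and a brain deletion through nestin-Cre, and the labels do not say which of these gave each line. RNA was read in 3 KO, 3 Het and 3 WT libraries of batch 1 and in 2 KO and 2 WT libraries of batch 3. Trimethylation (H3K27me3) and acetylation (H3K27ac) of histone H3 lysine 27 were mapped by chromatin immunoprecipitation in KO lines 530 and 534 and in WT lines 532 and 541. m6A was mapped by immunoprecipitation of methylated RNA in WT cells alone.

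PRC2 places H3K27me3 on chromatin and thereby helps keep developmental genes silent. Ezh1 or Ezh2 supplies the catalytic domain, Eed reads the mark and activates the enzyme, and Suz12 is the scaffold that binds Rbbp4 or Rbbp7. Accessory subunits define alternative forms of the complex: Mtf2 and Phf19 belong to the Polycomb-like form, and Jarid2 and Aebp2 to another. In the developing brain Ezh2 is high in dividing progenitors, whereas Ezh1 prevails in many cells that have left the cell cycle.

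The promoters of 4 subunit genes are shown because the RNA of the 2 catalytic paralogues moved in opposite directions and because Suz12 and Phf19 hold words that match the consensus of E2F, a family of cell cycle transcription factors. The consensus was searched as the words TTTCCCGC, TTTCGCGC, TTTGCCGC and TTTGGCGC on both strands, in RefSeq windows (GRCm38.p6) of 250 bases before to 50 after each start site. All 10 genes matched an entry, with 14 windows in all. Each line gives the 250 bases before the start, on the strand of the gene, with a matching word in capitals. They are chr11:101226464-101226713 and chr6:47595031-47595280 on the minus strand, chr11:79992856-79993105 on the plus strand and chr2:34913977-34914226 on the minus strand.
Ezh1: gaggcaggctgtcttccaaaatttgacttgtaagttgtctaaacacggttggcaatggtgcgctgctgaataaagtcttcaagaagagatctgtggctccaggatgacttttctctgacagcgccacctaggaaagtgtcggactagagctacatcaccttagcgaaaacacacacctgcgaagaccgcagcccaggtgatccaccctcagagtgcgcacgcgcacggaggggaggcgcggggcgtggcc
Ezh2: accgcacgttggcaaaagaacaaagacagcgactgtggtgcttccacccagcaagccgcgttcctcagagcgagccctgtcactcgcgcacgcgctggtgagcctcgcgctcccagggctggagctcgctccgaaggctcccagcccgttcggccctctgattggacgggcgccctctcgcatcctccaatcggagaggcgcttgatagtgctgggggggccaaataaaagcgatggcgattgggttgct
Suz12: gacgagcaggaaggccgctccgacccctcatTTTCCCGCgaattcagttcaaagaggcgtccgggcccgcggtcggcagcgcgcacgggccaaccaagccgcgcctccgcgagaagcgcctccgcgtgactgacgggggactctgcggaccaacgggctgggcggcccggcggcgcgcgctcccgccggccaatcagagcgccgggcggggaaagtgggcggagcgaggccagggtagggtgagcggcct
Phf19: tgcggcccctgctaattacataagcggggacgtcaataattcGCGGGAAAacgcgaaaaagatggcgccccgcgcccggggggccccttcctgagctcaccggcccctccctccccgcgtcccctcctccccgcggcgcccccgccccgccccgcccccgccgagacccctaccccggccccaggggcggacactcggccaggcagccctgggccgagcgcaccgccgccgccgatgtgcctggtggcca
With the start site as base 0, the word of Suz12 began at base -219 and that of Phf19 at base -208. The bases before the start of Ezh1 and Ezh2 held none of the words. Ezh2 has a match 3 bases past its start, within the 30 bases chr6:47595013-47595042 on the minus strand.
Ezh2 at the start site: gattgggttgctgcgTTTGGCGCtcggtcc
Thus 3 of 10 genes (30%) had a word in a window, against 4.56% of 10022 genes tested that have an entry. Counted by window it was 3 of 14 (21.4%), against 2.26% of all 32851 windows. The median GC content was 63.5% in the 14 windows, 60.7% in the 12814 windows of genes tested, of which 3.75% held a word, and 52.7% in all windows. A match describes these letters only and is not evidence of binding.

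RNA depth was 14.1 to 19.7 M fragments per library. Over the 13 libraries the members' fragments ranged from 57 to 255 for Phf19 and 71 to 318 for Ezh1, the members with the fewest, up to 3359 to 6746 for Rbbp4. Levels are given as CPM (counts scaled to the library total) with TMM scaling. The authors' FPKM (their own estimate of level per kilobase of transcript) is given where different genes are compared. FPKM is not CPM divided by a fixed length, and the scales can differ in direction. Mtf2 in WT libraries averaged 172 CPM and 16.5 FPKM in batch 1, against 108 CPM and 22.2 FPKM in batch 3. The Mettl14 locus had 20.8 to 23.2 CPM in KO, 22.9 to 24.8 in Het and 22.9 to 25.1 in WT libraries of batch 1, and 23.8 to 31.9 in KO and 37.1 to 39.8 in WT libraries of batch 3. This locus value counts exons outside the deletion and so does not test the genotype. All 12 neural progenitor markers passed the filter. Of the 12, 4 rose and 5 fell over both batches, where 32.7% of all genes tested rose and 30.6% fell. Their summed level was 5377 to 5831 CPM in KO, 8597 to 9399 in Het and 8140 to 8767 in WT libraries of batch 1, and 5930 to 5995 in KO and 8355 to 8860 in WT libraries of batch 3. Of the 5 astrocyte markers 4 rose and 1 fell, and they summed to 328 to 495 CPM in KO, 436 to 561 in Het and 279 to 380 in WT libraries of batch 1, and 161 to 269 in KO and 168 to 204 in WT libraries of batch 3. The 7 neuron markers (1 rose, 2 fell) summed to 1008 to 1212 CPM in KO, 1114 to 1267 in Het and 1132 to 1186 in WT libraries of batch 1, and 855 to 1027 in KO and 1053 to 1180 in WT libraries of batch 3. The 7 oligodendrocyte markers (2 rose, 2 fell) summed to 1257 to 1522 CPM in KO, 1259 to 1573 in Het and 1464 to 1818 in WT libraries of batch 1, and 2672 to 3023 in KO and 2156 to 2295 in WT libraries of batch 3. The 6 microglia markers summed to at most 2.62 CPM and the 5 endothelial markers to at most 5.62 CPM in any library. The 6 measured of 7 fibroblast markers summed to 6.56 to 8.52 CPM in KO, 1.22 to 2.02 in Het and 0.82 to 1.28 in WT libraries of batch 1, and 4.95 to 5 in KO and 1.56 to 3.15 in WT libraries of batch 3. No marker was at 0 in every library. The part of these cell type differences in the results that follow was not tested, and in bulk cultures fewer cells of a type and less RNA per cell cannot be told apart.

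With the batches fitted together, loss of Mettl14 went with less RNA of 8 PRC2 genes and more RNA of Ezh1 and Jarid2. Over both batches all 10 members passed the test (edgeR quasi-likelihood, Benjamini-Hochberg adjusted p below 0.05), 8 lower and 2 higher in KO than in WT libraries. The background was wide: 63.3% of all genes tested were called in this comparison, 30.6% lower and 32.7% higher. The median log2 fold change was -0.49 over the 10 members and 0.03 over all genes tested. On CPM, every KO library of 7 members lay below every WT library in both batches, which held for 23.1% of all genes tested. Ezh1 lay above in both, which held for 24.3%. In batch 3 alone Ezh1, Suz12, Jarid2 and Phf19 did not pass, and KO and WT overlapped there for Jarid2 and Phf19.

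**Figure D1:**
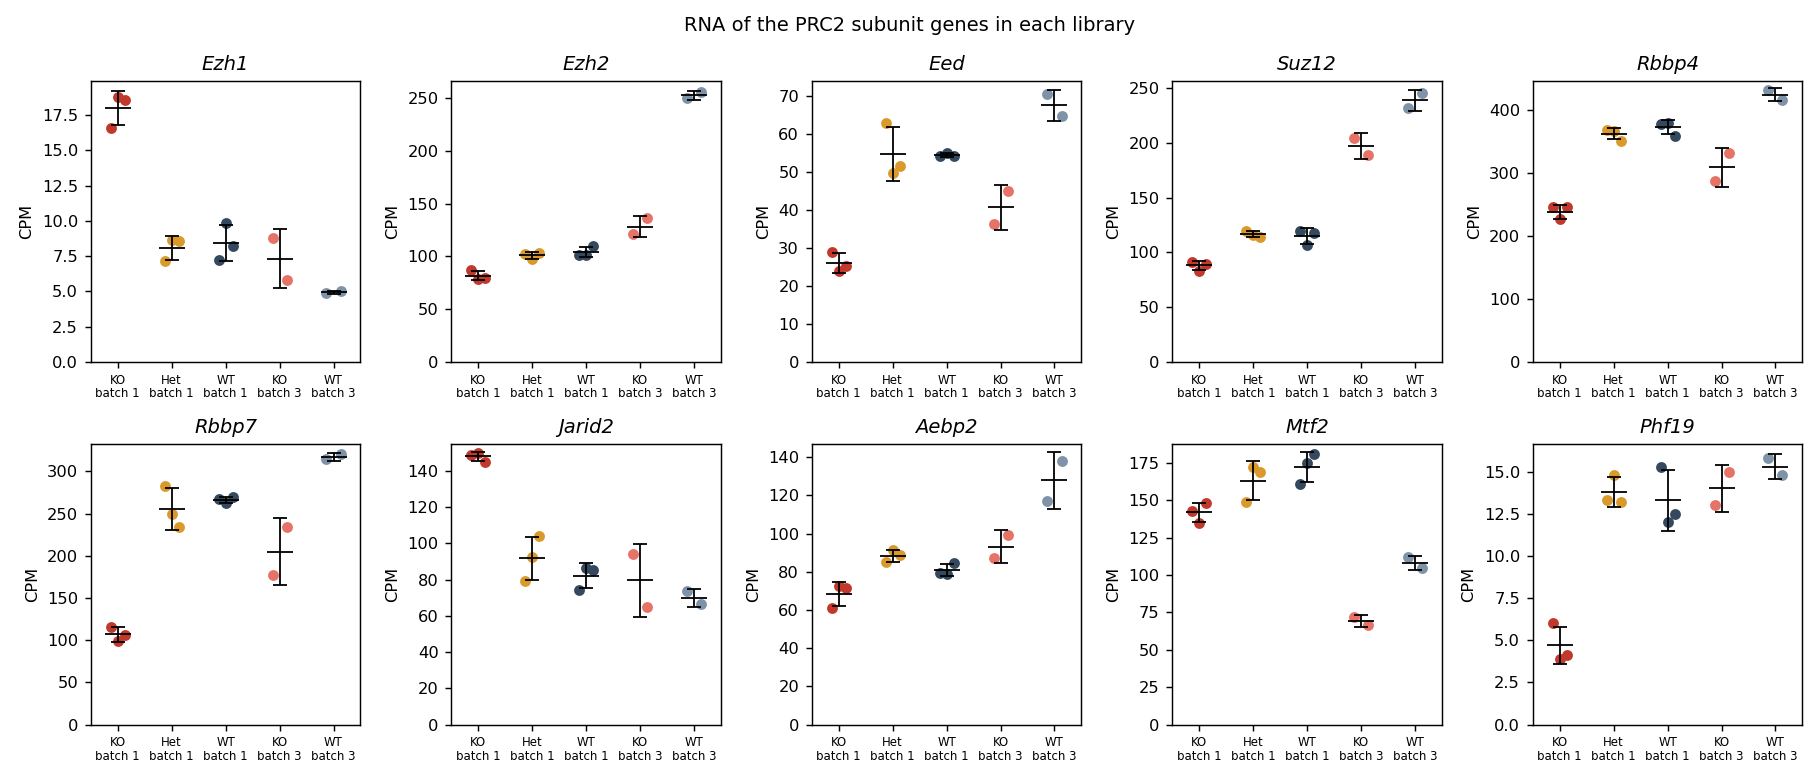
RNA level of each PRC2 gene (CPM, linear axis from 0) in KO, Het and WT libraries of batch 1 and KO and WT libraries of batch 3. Points are libraries and bars mean ± SD (n = 3 in batch 1, n = 2 in batch 3); KO lies apart from WT in batch 1 for all 10 genes (73.0% of all genes tested), and KO and WT overlap in batch 3 for Jarid2 and Phf19 (66.5% of all genes tested do not overlap there).

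The catalytic paralogues moved in opposite directions. Ezh2, the main H3K27 methyltransferase of dividing cells, had 87.4, 78.9 and 79.3 CPM in KO libraries of batch 1, against 101, 101 and 110 CPM in WT libraries. Batch 3 had 121 and 136 CPM in KO libraries, against 250 and 256 CPM in WT libraries. KO lay below WT in each batch without overlap, and the WT level itself was higher in batch 3. Ezh2 fell by 0.60 on the log2 scale over both batches (SE 0.1, adjusted p = 0.00021), by 0.38 in batch 1 (SE 0.059, adjusted p = 0.00016) and by 0.98 in batch 3 (SE 0.13, adjusted p = 0.0016). The drop was larger in batch 3, with a difference of -0.64 between the batches (SE 0.11, adjusted p = 0.0031). On the authors' FPKM the difference between batches was -0.68 and -0.67 and did not pass (limma, pseudocounts of 0.1 and 1, adjusted p = 0.059 and 0.056).

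Ezh1, the paralogue with weaker methyltransferase activity, had 16.6, 18.8 and 18.6 CPM in KO libraries of batch 1, against 7.26, 9.88 and 8.20 CPM in WT libraries. In batch 3 the values were 8.78 and 5.84 CPM in KO and 4.86 and 5.02 CPM in WT libraries. KO lay above WT in both batches, but 1 KO library of batch 3 was close to WT. Ezh1 rose 1.86-fold over both batches (log2 0.90, SE 0.15, adjusted p = 0.00016) and 2.08-fold in batch 1 (adjusted p = 3.7e-05). In batch 3 its log2 value of 0.56 (SE 0.29) did not pass (adjusted p = 0.18), and the batches did not differ past the threshold (adjusted p = 0.18).

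By FPKM, which allows genes to be compared, Ezh2 exceeded Ezh1 in every library. The ratio of Ezh2 to Ezh1 was 6.7 ± 0.19 in KO, 15 ± 1.3 in Het and 15.9 ± 3.8 in WT libraries of batch 1 (SD, n = 3 each). In batch 3 the ratio was 20 and 41.2 in the KO libraries and 75.4 and 84.4 in the WT libraries. The KO ratio was below the WT ratio in both batches without overlap. The ratio restates the FPKM of its 2 genes, not their CPM, and carries no test.

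**Figure D2:**
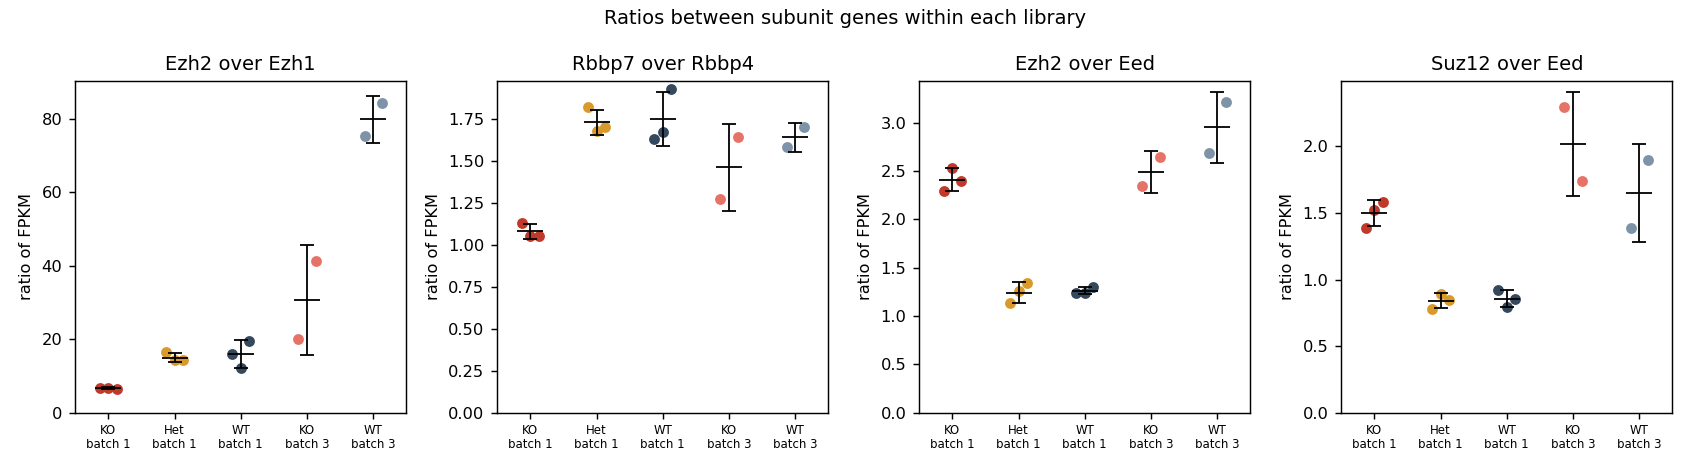
Ratio of FPKM between pairs of PRC2 genes within each library, for KO, Het and WT libraries of batch 1 and KO and WT libraries of batch 3. Points are libraries and bars mean ± SD (n = 3 in batch 1, n = 2 in batch 3). Ezh2 over Ezh1 is lower in KO than in WT in both batches. On FPKM, Rbbp7 over Rbbp4 and Suz12 over Eed separate KO from WT in batch 1 only, whereas on CPM they also separate in batch 3. Ezh2 over Eed is higher in KO in batch 1 and lower in KO in batch 3.

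The core subunits both fell in KO. Eed, which binds H3K27me3, had 29, 23.8 and 25.1 CPM in KO libraries of batch 1, against 54.1, 55.0 and 54.2 CPM in WT libraries. It had 36.3 and 44.9 CPM in KO libraries of batch 3, against 70.3 and 64.6 CPM in WT libraries. KO lay below WT in both batches with a wide gap. Eed was 1.91-fold lower over both batches (log2 -0.93, SE 0.098, adjusted p = 3.4e-06), with -1.10 in batch 1 (adjusted p = 3.4e-06) and -0.73 in batch 3 (adjusted p = 0.011). The batches did not differ past the threshold (adjusted p = 0.19). The FPKM ratio of Ezh2 to Eed was 2.41 ± 0.12 in KO and 1.26 ± 0.036 in WT libraries of batch 1 (SD, n = 3 each), but 2.34 and 2.64 in KO and 2.68 and 3.21 in WT libraries of batch 3.

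Suz12, the scaffold of the complex, had 91.6, 83.4 and 89.5 CPM in KO libraries of batch 1, against 120, 107 and 118 CPM in WT libraries. In batch 3 it had 205 and 189 CPM in KO libraries, against 232 and 246 CPM in WT libraries. KO was lower without overlap in each batch, by a small margin, and the level of both groups was higher in batch 3. Suz12 fell by 0.34 on the log2 scale over both batches (SE 0.056, adjusted p = 0.00014) and by 0.42 in batch 1 (adjusted p = 8.8e-05). The batch 3 value of -0.28 (SE 0.13) did not pass (adjusted p = 0.14). The FPKM ratio of Suz12 to Eed was 1.5 ± 0.096 in KO and 0.856 ± 0.065 in WT libraries of batch 1 (SD, n = 3 each). In batch 3 the 2.3 and 1.74 of KO libraries overlapped the 1.39 and 1.9 of WT libraries. On CPM the ratio in batch 3 was higher in each KO library than in each WT library.

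Both histone-binding subunits, which PRC2 shares with other chromatin complexes, fell in KO. Rbbp7 had 116, 98.6 and 106 CPM in KO libraries of batch 1, against 267, 263 and 269 CPM in WT libraries. The KO libraries of batch 3 had 177 and 234 CPM, against 314 and 320 CPM in WT libraries. KO lay below WT in both batches, and the KO libraries of batch 3 lay apart from each other. Rbbp7 was 2.05-fold lower over both batches (log2 -1.04, SE 0.12, adjusted p = 1e-05). The drop was larger in batch 1 (-1.35, adjusted p = 1.4e-07) than in batch 3 (-0.62, adjusted p = 0.021), by 0.69 (SE 0.16, adjusted p = 0.013).

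Rbbp7 lies on the X chromosome, and cultures of both sexes were present. Xist, chosen after its values were seen, exceeded 1000 CPM in 7 libraries (1646 to 2861) and was at most 0.566 CPM in the other 6. Each of the 5 groups held libraries of both kinds. In batch 3 the KO library with 177 CPM of Rbbp7 had 0.209 CPM of Xist and the one with 234 CPM had 1841, whereas the WT libraries, at 314 and 320 CPM, had 2861 and 0.566.

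Rbbp4 had 245, 226 and 245 CPM in KO libraries of batch 1, against 378, 379 and 359 CPM in WT libraries. The KO libraries of batch 3 had 287 and 331 CPM, against 432 and 416 CPM in WT libraries. KO lay below WT in both batches. Rbbp4 was 1.48-fold lower over both batches (log2 -0.57, SE 0.062, adjusted p = 4.6e-06), with no difference between batches past the threshold (adjusted p = 0.25). The FPKM ratio of Rbbp7 to Rbbp4 was 1.08 ± 0.046 in KO and 1.75 ± 0.16 in WT libraries of batch 1 (SD, n = 3 each). In batch 3 it was 1.27 and 1.64 in KO and 1.58 and 1.70 in WT libraries, which overlap. On CPM the ratio in batch 3 was lower in each KO library than in each WT library. The exons of Rbbp4 overlap Sync, and those of Rbbp7 overlap Txlng, on the opposite strand. It is not given whether strand was used in counting. Sync had at most 1.53 CPM and Txlng at most 37.6 CPM in any library.

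Of the accessory subunits Jarid2 rose and the other three fell. Jarid2, a DNA-binding subunit that helps recruit PRC2, had 149, 150 and 145 CPM in KO libraries of batch 1, against 74.0, 86.6 and 85.2 CPM in WT libraries. Its batch 3 values were 94.0 and 65.1 CPM in KO libraries, against 73.5 and 66.5 CPM in WT libraries. The groups were far apart in batch 1 and overlapped in batch 3. Jarid2 was 1.5-fold higher over both batches (log2 0.59, SE 0.13, adjusted p = 0.0018) and 1.76-fold higher in batch 1 (adjusted p = 1.3e-05). The batch 3 value of 0.19 (SE 0.19) did not pass (adjusted p = 0.48), and it was lower than that of batch 1 by a difference of -0.67 (SE 0.2, adjusted p = 0.035).

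Phf19, a Polycomb-like protein that reads methylated H3K36, had the largest drop of the members in batch 1. It had 6, 3.9 and 4.15 CPM in KO libraries, against 15.3, 12 and 12.5 CPM in WT libraries. In batch 3 it had 13 and 15 CPM in KO libraries and 15.8 and 14.8 CPM in WT libraries. The batch 3 groups overlapped. Phf19 was 2.88-fold lower in batch 1 (log2 -1.52, SE 0.17, adjusted p = 1.4e-05), while batch 3 gave -0.13 (SE 0.2, adjusted p = 0.66). The difference between batches was 1.36 (SE 0.25, adjusted p = 0.0047), so that the value over both batches, -0.91 (SE 0.23, adjusted p = 0.0032), averages unlike effects.

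Mtf2, another Polycomb-like protein, had 143, 135 and 148 CPM in KO libraries of batch 1, against 161, 175 and 181 CPM in WT libraries. Its batch 3 values were 72.2 and 66.4 CPM in KO libraries, against 112 and 105 CPM in WT libraries. KO was lower without overlap in each batch. Mtf2 fell by 0.42 on the log2 scale over both batches (SE 0.077, adjusted p = 0.00036), by 0.31 in batch 1 (adjusted p = 0.0015) and by 0.64 in batch 3 (adjusted p = 0.0081). On FPKM the batch 1 value was -0.29 and -0.27 and did not pass (limma, pseudocounts of 0.1 and 1, adjusted p = 0.056 and 0.059).

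Aebp2, a zinc finger subunit that occurs with Jarid2, had 61.1, 72.5 and 71.3 CPM in KO libraries of batch 1, against 79.3, 78.9 and 84.6 CPM in WT libraries. In batch 3 it had 87.1 and 99.2 CPM in KO libraries, against 117 and 138 CPM in WT libraries. On CPM KO was lower without overlap in each batch. By FPKM the batch 1 groups overlapped, with 17.7 to 24.6 in KO and 22.9 to 26.2 in WT libraries. The batch 1 log2 value on FPKM was -0.16 (limma, pseudocount of 0.1, adjusted p = 0.3). The log2 fold change was -0.33 over both batches (edgeR, SE 0.075, adjusted p = 0.0017). On the authors' FPKM it did not pass, with -0.31 at a pseudocount of 0.1 (limma, adjusted p = 0.059) and -0.29 at a pseudocount of 1 (limma, adjusted p = 0.061).

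**Figure D3:**
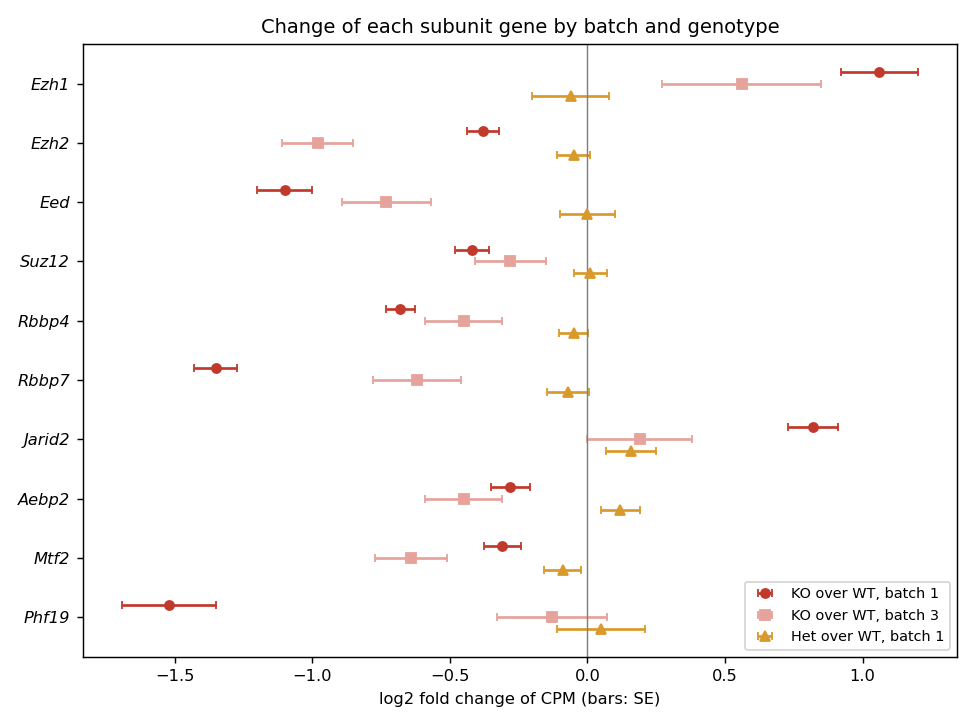
Log2 fold change of each PRC2 gene (edgeR) in KO over WT of batch 1, KO over WT of batch 3 and Het over WT of batch 1. Bars are SE, with 3 libraries a group in batch 1 and 2 in batch 3; the Het values lie between -0.09 and 0.16, and Phf19 spans -1.52 in batch 1 and -0.13 in batch 3.

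Batch by batch, all 10 members were called in batch 1, where 69.3% of all genes tested were called, and 6 of 10 in batch 3, where 31.7% were. The 6 were Ezh2, Eed, Rbbp4, Rbbp7, Aebp2 and Mtf2, all lower in KO. With 2 libraries a group this count leaned on single libraries: it was 1 without WT library 1 and 2 without WT library 2, and the lone library left is then assumed to vary like the other group. Ezh2 was called in each of the 4 fits that left out 1 library. On the authors' FPKM the count was 3 (Ezh2, Eed and Mtf2) at a pseudocount of 0.1 and 1 (Ezh2) at a pseudocount of 1 (limma). The batch 3 value of Ezh1 was 0.25 without KO library 1 (adjusted p = 0.55) and 0.84 without KO library 2 (adjusted p = 0.037). That of Jarid2 was -0.09 without KO library 1 (adjusted p = 0.55) and 0.44 without KO library 2 (adjusted p = 0.0094), so that its sign rests on 1 library. Suz12 passed at -0.33 without KO library 1 (adjusted p = 0.017). The KO effect differed between batches in 5 members, against 18.9% of all genes tested, and these were Ezh2, Rbbp7, Jarid2, Mtf2 and Phf19. The calls of Ezh2, Rbbp7 and Phf19 held in each of 13 fits that left out 1 library, whereas the call of Jarid2 was lost in 7 and that of Mtf2 in 11. On FPKM the differences of Jarid2 (limma, adjusted p = 0.083 and 0.077 at pseudocounts of 0.1 and 1) and of Mtf2 (0.23 and 0.22) did not pass.

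In cells with 1 intact Mettl14 allele no PRC2 gene differed from WT past the threshold. None of the 10 members was called in Het against WT (edgeR, 0 also at an unadjusted p below 0.05, and 0 with DESeq2), and 0.0146% of all genes tested were. Log2 values ran from -0.09 for Mtf2 to 0.16 for Jarid2, with SE of at most 0.16. Eed had 62.7, 49.7 and 51.4 CPM and Ezh2 102, 97.1 and 103 CPM in Het libraries, which overlap their WT values. Aebp2 alone had Het libraries (84.9, 91.2 and 88.6 CPM) all above the WT libraries, at a log2 value of 0.12 (adjusted p = 0.66), and Het and WT did not overlap in 14.7% of all genes tested. KO against Het called the same 10 members as KO against WT in the same directions, against 68.0% of all genes tested, but these comparisons share libraries. In KO against Het the log2 values were -1.10 for Eed, -1.28 for Rbbp7, -1.57 for Phf19, -0.32 for Ezh2, 1.12 for Ezh1 and 0.66 for Jarid2.

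RNA levels per length were ranked by their group means. In WT libraries of batch 1 the order ran, in mean FPKM, Rbbp7 115, Rbbp4 65.9, Ezh2 35.3, Eed 27.9, Aebp2 24.2, Suz12 23.8, Mtf2 16.5, Jarid2 13.5, Phf19 3.46 and Ezh1 2.31. Eed and Aebp2, and Aebp2 and Suz12, overlapped between libraries. In KO libraries Jarid2 stood at rank 4 with 22.6 ± 0.83 FPKM, overlapping Aebp2, and Eed at rank 8 with 12.4 ± 0.33, overlapping Mtf2, and Phf19 was last at 1.09 ± 0.29, below Ezh1 at 4.48 ± 0.36 (SD, n = 3 each). In KO libraries Rbbp7 at 43.7 and Rbbp4 at 40.6 FPKM overlapped. The order of the Het means was that of WT. In batch 3 Ezh2 averaged 46.4 FPKM in KO libraries and 85.4 FPKM in WT libraries, at rank 3 and rank 2. There Ezh2 overlapped Rbbp4 between libraries in both groups, and Suz12 in KO libraries. Ezh1 was last in both groups.

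Genes with the closest RNA pattern to 4 members were named by the root mean square difference of log2 CPM, centred on each batch, over the 13 libraries and 13726 genes. For Ezh2 they were Pi4k2b (0.070), Efcab5 (0.081) and Sympk (0.082), and the nearest other member was Mtf2 at rank 41 (0.137). For Eed they were Ttc27 (0.066), Cct8 (0.070) and Larp7 (0.071), and Rbbp7 stood at rank 55 (0.106). For Suz12 they were Ipo9 (0.041), Syncrip (0.045) and Eif2ak3 (0.047), with Aebp2 at rank 1049 (0.130). For Ezh1 they were Mlxip (0.104), Zfp28 (0.105) and the antisense RNA Kcnq1ot1 (0.111), with Jarid2 at rank 374 (0.201). The measure is a description of these libraries, and Kcnq1ot1 cannot be told from its sense partner if strand was not used.

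Related gene groups, chosen with earlier results of these data known, were set beside the members by counts over both batches. Of all genes tested, 32.7% were called higher and 30.6% lower in this comparison. Of the PRC1 genes, which form the ubiquitin ligase that acts with PRC2, 18 of 20 were tested, 6 rose and 2 fell, with a median log2 value of 0.13. The count of PRC1 genes that rose is near the share of all genes. Pcgf2, a subunit of the canonical form, had 6.77 CPM in KO and 1.27 in WT libraries of batch 1 and 8.53 in KO and 5.31 in WT libraries of batch 3 (group means; log2 1.61, adjusted p = 0.00047), with a larger rise in batch 1 (adjusted p = 0.012). Scmh1 rose by 0.82 (adjusted p = 7.8e-05), whereas Pcgf5 was at -0.63 (adjusted p = 1.9e-05) and Pcgf3 at -0.27 (adjusted p = 0.0011). Of the 3 H3K27 demethylase genes Kdm6a (0.50, adjusted p = 0.041) and Kdm6b (0.49, adjusted p = 0.0036) rose, each called in batch 1 and not in batch 3. Of 5 other accessory genes, 1 passed the filter and was not called.

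Of the partners of Rbbp4 and Rbbp7 in other complexes 18 were tested, 11 fell and 1 rose, with a median of -0.21. Among all genes tested 30.6% fell and 32.7% rose. Chaf1b, of the chromatin assembly factor, had 8.08 CPM in KO and 51.1 in WT libraries of batch 1 and 36.8 in KO and 57.6 in WT libraries of batch 3 (group means; log2 -1.81, adjusted p = 0.00025), and its drop differed between batches (adjusted p = 0.00066). Hat1, a histone acetyltransferase that works with Rbbp7, was at -1.23 (adjusted p = 0.00011) and Hdac1, a deacetylase, at -1.10 (adjusted p = 1.8e-08). Chd3, a remodeller of the NuRD complex, rose by 1.5 (adjusted p = 2.2e-05).

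Replication genes that E2F is known to drive fell together: 18 of 20 fell and the other 2 were not called (edgeR), with a median of -1.39. Among all genes tested 30.6% fell and 32.7% rose over both batches. In batch 1 alone all 20 fell, with a median of -1.92, against 4786 of 13677 genes tested that fell. In batch 3 alone 13 fell and 1 rose, with a median of -0.56, against 1854 that fell and 2221 that rose of 12836 genes tested. Ccne2, an S phase cyclin, was at -2.17 (adjusted p = 7e-05), and the replicative helicase genes Mcm2 and Mcm6 were at -1.68 (adjusted p = 0.00025) and -1.67 (adjusted p = 7.5e-05). Of 12 E2F and Rb family genes tested 6 fell and 1 rose over both batches, with a median of -0.38, against 63.3% of all genes called in either direction. E2f2 (-1.5, adjusted p = 9.2e-05), Rbl1 (-1.25, adjusted p = 1.1e-05) and E2f7 (-1.09, adjusted p = 0.00027) had the largest drops, and Rbl2, a pocket protein of resting cells, rose by 0.34 (adjusted p = 0.00077).

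**Figure D4:**
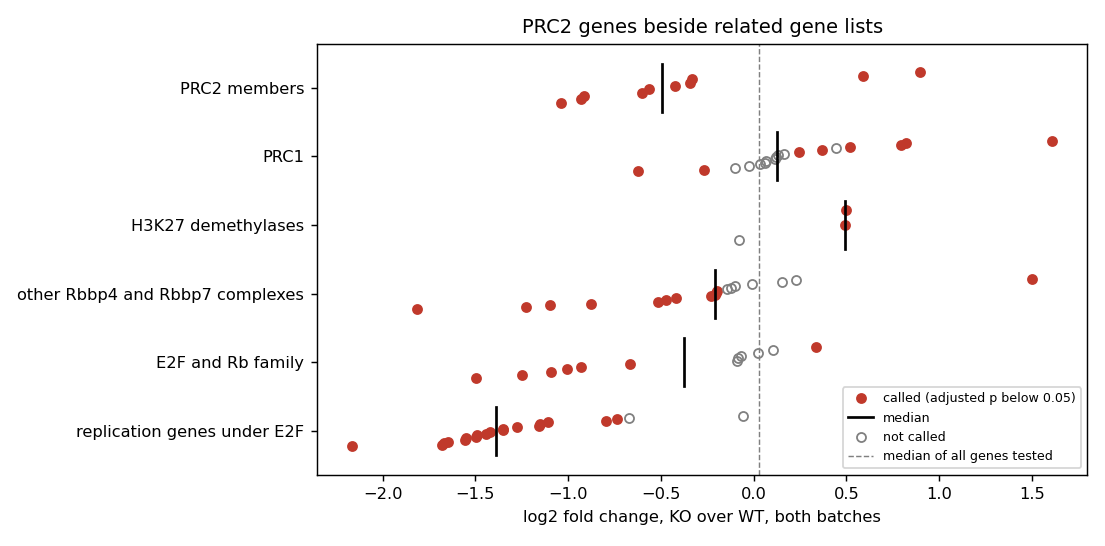
Log2 fold change in KO over WT over both batches for the PRC2 genes and related lists. Each point is a gene tested, filled where called at an adjusted p below 0.05; black lines are list medians (-0.49 for PRC2, -1.39 for the replication genes) and the dashed line is the median of all genes tested, 0.03.

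m6A peaks lay on transcripts of 9 of the 10 members in WT cells, with none at Ezh1. A peak in any list was present for 64.8% of 13456 genes tested. The 4 deposited lists set each of 2 immunoprecipitates against each of 2 inputs and are therefore not independent. Their read depth is unknown and no KO list was used. A peak in all 4 lists was found for 6 members, against 41.1% of genes tested, and for 5 members at a −log10 q of 2 or more, where Phf19 was lost. In 5 of them, Suz12, Jarid2, Aebp2, Mtf2 and Phf19, it was at the same place, whereas the peaks of Ezh2 differed in place: both lists of 1 immunoprecipitate had one in the first exon, and both lists of the other had one in exon 2. A peak in exon 9 of 20 was in 1 list.

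Of 15 regions at the members (mm10), 7 were in a first exon, 7 in an internal exon and 1 in a last exon. Only 5 of the 15 were in all 4 lists. No share of positions over all peaks was taken, so the split is not shown to be particular to these genes. The last-exon region belonged to Suz12, at chr11:80031905-80032281, 249 bases into a last exon of 2279 bases, with the authors' fold enrichment between 3.56 and 4.26 over the 4 lists. Jarid2 had 5 regions, the most of any member. The widest, at chr13:44902284-44902818, spanned 535 bases of an internal exon and was in all 4 lists (2.90 to 3.43). Aebp2 at chr6:140623822-140624354 (3.31 to 3.78) and Mtf2 at chr5:108065769-108066026 (3.98 to 4.41) carried their region in the first exon, and Phf19 at chr2:34911674-34911831 in exon 2 (4.12 to 4.37). Eed and Rbbp4 had 1 region each, found in 1 list only, and Rbbp7 had 1 found in 2 lists. Of the 2 members that rose in KO, Ezh1 had 0 regions and Jarid2 5. Ezh1 also had the lowest FPKM of the members in WT libraries of both batches, and the part of the level in the absence of a peak was not tested. The peaks carry no strand.

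The promoters of all 10 members carried an H3K27ac peak, within 1 kb of a start site, in both KO lines and both WT lines, as did 85.9% of 10022 genes tested. Peaks were ranked by q within each line's own list, since the authors' values do not compare across lists. Ezh2 had the highest rank of the members in every line, in the top 1.53% (KO 530), 0.983% (KO 534), 0.456% (WT 532) and 0.241% (WT 541). Ezh1 had the lowest rank in every line, 19.2% and 13.9% in the KO lines and 20.3% and 27.9% in the WT lines. Ranks from lists of different length cannot show whether a peak changed between lines.

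**Figure D5:**
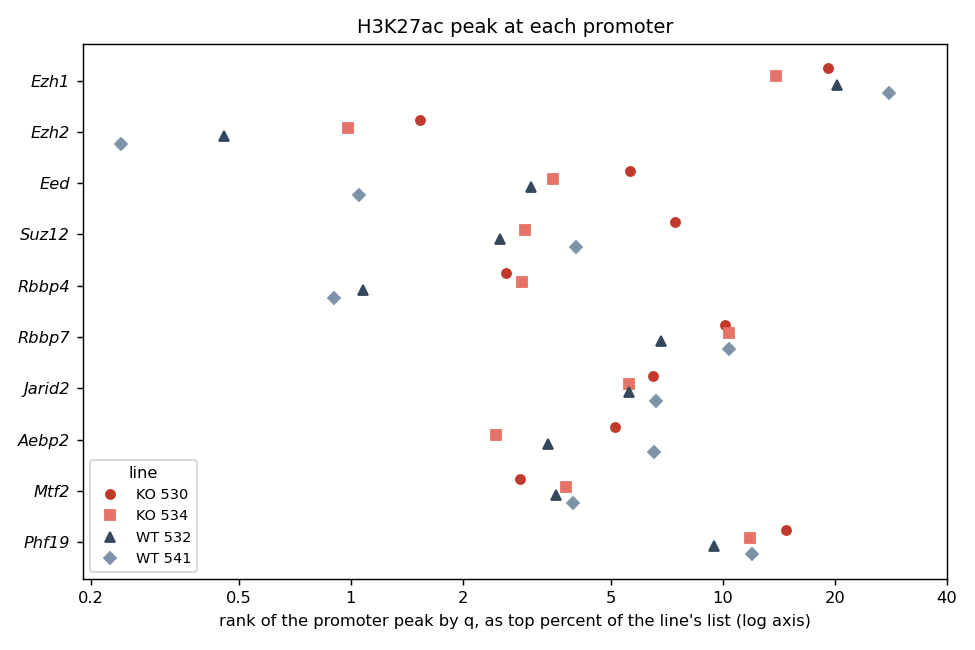
Rank by q of the H3K27ac peak at each PRC2 promoter, as the top percent of each line's own list (log axis), in KO lines 530 and 534 and WT lines 532 and 541. Points are lines; Ezh2 lies between 0.241% and 1.53% and Ezh1 between 13.9% and 27.9%, and differences between lines are not comparable.

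H3K27me3, the product of PRC2, had a peak in all 4 lines at 0 of 10 member promoters, against 9.01% of genes tested. In any line 1 of 10 had one, against 20.3%. For 10 genes both counts are near the share of all genes. That member was Rbbp7, with a peak in KO 534 and WT 532. H3K27me3 peaks covered 44.8% of the Rbbp7 locus in KO 534 and 13.7% in WT 532, and 0% in KO 530 and WT 541. The same lines had 28.3% and 19.6% of all their H3K27me3 peaks on the X chromosome, against 0.986% in KO 530 and 0.687% in WT 541. The part of this difference between lines in the Rbbp7 peaks was not tested, and it runs across the genotypes. Within the Jarid2 locus H3K27me3 peaks covered 4.48% and 3.04% of 190870 bases in the KO lines and 0.732% and 1.22% in the WT lines. With 2 lines a group no test was made. The H3K27me3 lists held 33188 to 59561 peaks, so coverage cannot show whether the mark changed between lines. No share of loci that separate KO from WT lines in this way was taken over all genes. Aebp2 and Phf19 had 1 peak each within the locus, in WT 532, covering 0.351% and 0.885% of it. Within 2 kb of a start site, Ezh1 and Jarid2 also had a peak in at least 1 line, which makes 3 of 10 members, against 26.3% of genes tested.

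Known Polycomb targets carried the mark in both genotypes. Of 16 such genes with a promoter entry, 16 had an H3K27me3 peak in each KO line and 15 in each WT line, against 14.5% and 16.9% of all genes with an entry in the KO lines and 16% and 13.6% in the WT lines. Cdkn2b, an inhibitor of cell cycle kinases, was the gene without a peak in the WT lines. Only 4 of 26 listed targets passed the RNA filter over both batches, of which 2 rose and 2 fell, against 32.7% and 30.6% of all genes tested. Cdkn2a had 2.49 CPM in KO and 14.2 in WT libraries of batch 1 and 5.62 in KO and 18.5 in WT libraries of batch 3 (log2 -2.16, adjusted p = 4.3e-06). Cdkn2b was at -1.53 (adjusted p = 6.5e-07). Neurog2, a proneural factor, had 12.6 CPM in KO and 0.329 in WT libraries of batch 1 and 1.27 in KO and 0.101 in WT libraries of batch 3 (group means; log2 4.99 over both batches, adjusted p = 3.6e-06). Neurog2 and Eomes did not pass the filter of batch 3 alone. Eomes, of intermediate progenitors, rose by 1.41 over both batches (adjusted p = 0.042), but its mean was 0.892 CPM in KO and 0.121 in WT libraries of batch 1 and 0.26 in KO and 0.414 in WT libraries of batch 3, and the batches differed (adjusted p = 0.014).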

How the data were processed

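RNA tables were deposited per batch. Per the file headers they give raw fragments per locus and library, which are estimated counts, and FPKM scaled by the authors. The submitters' processing notes name TopHat2 2.1.0, TopHat, Cufflinks, Cuffdiff, Bowtie2 2.3.1, MACS2 and mm10, with no roles. The batch 2 table is identical to that of batch 1, so the 6 libraries of batch 2 were not analysed here. Tables number libraries within a genotype without naming the culture line.

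Each deposited peak has, per the file headers, a score, the ratio of its height to input (fold enrichment), and −log10 values of p and q, with no value of −log10 q below 1. The depth behind peaks is unknown.

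Fragments were rounded and summed per gene symbol. Loci without a known gene and those with the status HIDATA (2 in batch 1, 1 in batch 3) were left out. Tests used edgeR 4.0.16 in R 4.3.3 with TMM (factors 0.968 to 1.04), filterByExpr at its defaults and quasi-likelihood F tests (robust fit, two-sided), with Benjamini-Hochberg adjustment over all genes tested and a threshold of 0.05. Batches were fitted alone, and together with batch as a covariate. The p-values measure the spread between libraries of different culture lines. The procedure was tested on simulated counts. Limma 3.58.1 on log2(FPKM + 0.1) or log2(FPKM + 1) and DESeq2 1.42.0 were alternatives, with other scalings, no low-count filter, loci of 1 known gene and leaving out each library. SE is the log2 fold change over the square root of F. Values of CPM and FPKM are given per library or as mean ± SD.

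An m6A peak counted for a gene when it overlapped an exon, and a histone peak when it overlapped the window of 1 kb on each side of a start site, by 1 base or more. The members and lists were chosen with earlier results of these data known. Named beside the members are, of each list, up to 3 called genes of largest change in each direction, and the 3 genes most like Ezh2, Eed, Suz12 and Ezh1 (prior count 2). A result that this rule would name is not reported here.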

Additional observations from a re-analysis of the deposited data

Results flagged for a closer look

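In 5 members the KO effect differed between batches, by edgeR's test of the difference itself (batch 3 minus batch 1, log2 scale). The difference was -0.64 for Ezh2 (adjusted p = 0.0031), whose drop was larger in batch 3. It was 1.36 for Phf19 (adjusted p = 0.0047) and 0.69 for Rbbp7 (adjusted p = 0.013), whose drops were larger in batch 1. It was -0.67 for Jarid2 (adjusted p = 0.035), whose rise was seen in batch 1, and -0.36 for Mtf2 (adjusted p = 0.049). Leaving out 1 library at a time, the Jarid2 call was lost in 7 and the Mtf2 call in 11 of 13 fits. On the authors' FPKM (limma, pseudocount of 0.1) Ezh2 (adjusted p = 0.059), Jarid2 (0.083) and Mtf2 (0.23) did not pass. The batches hold different culture lines, so lines and batch cannot be told apart.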

How the results depend on the processing

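Over both batches the count of members called was 10 under each of the 7 alternatives and 13 fits without 1 library, except 9 under both limma fits of FPKM, where Aebp2 was lost. In batch 1 KO against WT stayed at 10 in 9 leave-out fits and was 8 under both limma fits, without Aebp2 and Mtf2. In batch 3 the 6 called became 3 and 1 under limma on FPKM with pseudocounts of 0.1 and 1, and 1 to 8 without 1 library. The 5 differences between batches became 4 with no low-count filter, 2 under both limma fits, and 3 to 7 without 1 library. KO against Het gave 8 under both limma fits and 9 to 10 without 1 library (Mtf2 lost without Het library 2), and Het against WT 0 to 0 without 1 library. The cause of these losses was not tested. Of all genes called, the share higher moved from 49.7% to 39.2% in KO against Het, and from 56.7% to 74.0% in the difference between batches, under limma on log2(FPKM + 0.1), where the median of all genes stood at -0.12 and 0.11. DESeq2 called 26 genes in Het against WT, against 2 with edgeR. Of all genes, 4075 were called in batch 3 and 2600 under limma on log2(FPKM + 1), with 2082 to 5645 without 1 library; the difference between batches gave 2596, and 1091 to 4491 without 1 library. Members with H3K27me3 in any line became 3 with 2 kb windows, and members with an m6A peak in all 4 lists went to 5 of the reported 6 at a −log10 q of 2 or more, and to 9 with a peak in any list. No direction of a called member reversed. No paired analysis was possible because the RNA groups share no replicate numbers tied to their columns and the m6A lists hold no test. Peaks have no depth, so an absent peak does not show an absent mark.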

Other observations

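Markers of neural progenitors moved in both directions in KO cultures over both batches (edgeR). Of the 12 markers 4 rose and 5 fell. The intermediate filament genes Nes and Vim and the surface protein gene Prom1 fell. The transcription factor gene Sox2 rose, as did Msi1 (log2 1.03, adjusted p = 6.8e-05) and Notch1 (log2 0.74, adjusted p = 0.00038). Vim averaged 1451 CPM in KO and 3470 in WT libraries of batch 1, and 1212 in KO and 3428 in WT libraries of batch 3 (log2 -1.36, SE 0.095, adjusted p = 1.2e-07). Sox2 averaged 778 CPM in KO and 380 in WT libraries of batch 1, and 897 in KO and 464 in WT libraries of batch 3 (log2 1.00, SE 0.081, adjusted p = 3.6e-07). Among astrocyte genes Gfap rose by 3.48 (SE 0.65, adjusted p = 0.00039) and Aqp4, a water channel, by 2.62 (SE 0.45, adjusted p = 0.00021), whereas Aldh1l1 was at -2.11 (SE 0.11, adjusted p = 1.6e-08). Gfap averaged 44.3 CPM in KO, 9.73 in Het and 3.35 in WT libraries of batch 1, and 1.46 in KO and 0.402 in WT libraries of batch 3. Of 7 neuron markers 1 rose and 2 fell, with a median of -0.14, where 32.7% of all genes tested rose and 30.6% fell. The synaptic genes Syt1 (adjusted p = 0.0041) and Snap25 (log2 -1.45, adjusted p = 0.0076) fell. Syt1 averaged 3.51 CPM in KO and 6.35 in WT libraries of batch 1, and 12.9 in KO and 28.9 in WT libraries of batch 3. Snap25 had a low level, with means of 0.285 CPM in KO and 1.14 in WT libraries of batch 1. Its batch 3 means were 1.01 CPM in KO and 2.06 in WT libraries. In batch 3 alone 1 of 7 fell and the others were not called, with a median of -0.84. Dcx, of young neurons, averaged 29.7 CPM in KO and 3.67 in WT libraries of batch 1, and 11.1 in KO and 8.49 in WT libraries of batch 3, and its rise differed between batches (adjusted p = 0.034).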
